A study of Mus musculus with 3 samples.

Results

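The translation initiation factors of mouse CD4+ T cells were described in 3 single-cell RNA libraries. Members were the genes whose symbol begins with Eif and a digit from 1 to 6, leaving out the Y-linked Eif2s3y, with 10 or more unique molecular identifiers (UMIs, each marking 1 captured transcript) over the 3 libraries. Of 55 such symbols 52 passed, out of 13898 genes with that many UMIs and 31053 in the feature table. The 3 below the minimum were Eif4ebp3 with 1 UMI and Eif4e1b and Eif2c5 with 0, and the members closest above it were Eif5a2 with 606 UMIs and Eif3j2 with 977.

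The cells were spleen T cells of C57BL/6 mice, enriched as naïve CD4 cells and sorted as 7AAD-CD3+CD4+, so dead cells were gated out. The "none" library (0hr-WT) held Ift20 f/f cells kept in DPBS buffer, which carry the floxed gene but no Cre and are the WT of the study. The CD3/CD28 library (24hr-WT) held the same genotype after 24 h with antibodies to CD3 and CD28, each at 1 μg/mL. These engage the T cell receptor complex and the costimulatory receptor CD28. The IFT20-KO library (24hr-KO) held Ift20 f/f CD4 cre cells with the same stimulation, in which Cre under the CD4 promoter deletes Ift20, a transport protein first known from cilia, from the thymus on. There was 1 library per group and no unstimulated IFT20-KO library, so neither comparison has a replicate check or a test, a stimulated level cannot be separated from time in culture, and the 2 comparisons share the 24hr-WT library. All intervals below are 95% and cover counting error only.

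Initiation factors bring the small ribosomal subunit to an mRNA and set it on the start codon. eIF4F binds the cap and unwinds the leader, eIF2 delivers the initiator tRNA and is recharged by eIF2B, eIF3 is the scaffold on the small subunit, and eIF1, eIF1A, eIF5 and eIF5B control scanning, start codon choice and joining of the large subunit. Naïve T cells are small and make little protein, and after antigen receptor and CD28 signals they grow and raise protein synthesis before they divide. In that response mTORC1 phosphorylates the 4E-BP proteins, which otherwise hold eIF4E, and the eIF2 kinases can shut initiation down by phosphorylating eIF2.

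After filtering, the libraries held 8031, 9903 and 13920 cells and 37133949, 116979076 and 106435143 UMIs (0hr-WT, 24hr-WT and 24hr-KO). Medians of 4627, 12167 and 5014.5 UMIs per cell were unequal, and 60.9%, 24.1% and 49.99% of the cells had under 5000 UMIs. Ift20 was at 64.4, 76.0 and 6.605 UMIs per 1000000 UMIs (CPM), and so was low in the library labelled KO. The 5 T cell markers were detected in each library, while the B, NK, erythroid and platelet lists summed to between 0 and 3.31 CPM. Of the myeloid list Cst3 made up nearly the whole sum of 76.4 to 80.4 CPM and Lyz2 had 1 UMI in all. Cd8b1 was at 28.6, 9.04 and 11.2 CPM with Cd8a at 0.29 or less, and the part of these transcripts in the values below was not tested. Markers of naïve cells summed to 3153, 774 and 907 CPM and markers of activation to 166, 919 and 925 CPM. Between 1.0% and 2.0% of the barcodes of a library also occurred in another one.

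As a group, the 52 genes took a larger share of the transcripts after stimulation. They held 0.981% of the UMIs in 0hr-WT, 1.72% in 24hr-WT and 1.58% in 24hr-KO. Their summed level was 9809 CPM (9777 to 9841) without stimulation and 17169 CPM (17145 to 17193) with it, a ratio of 1.75 or a log2 ratio of 0.81 (0.80 to 0.81). Without Eif5a and Eif1, which contributed the most UMIs in 24hr-WT, the log2 ratio of the sum was 0.67. The median log2 ratio of the members was 0.72, against −0.11 over all 13898 genes and 0.29 over the 3435 genes with 50 CPM or more in a library. Of the 52 members 31 were at least 1.5-fold higher in 24hr-WT, a step that 28.1% of all genes reached, and 4 were at least 1.5-fold lower, against 35.3% of all genes. Among genes with 50 CPM or more, 30 of 44 members were 1.5-fold higher (39.0% of such genes) and 1 of 44 was lower (23.6%).

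These are shares of a library's UMIs, so "lower" means a smaller share. Counted as UMIs per cell with no scaling, all 52 members were higher in 24hr-WT, since stimulated cells yielded more UMIs for most genes (median log2 ratio of all genes 1.24 on that scale). The members' median stood 0.84 above that of all genes, a gap that no scaling of whole libraries can alter, and 0.67 above it with the mean of per-cell fractions.

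**Figure D1:**
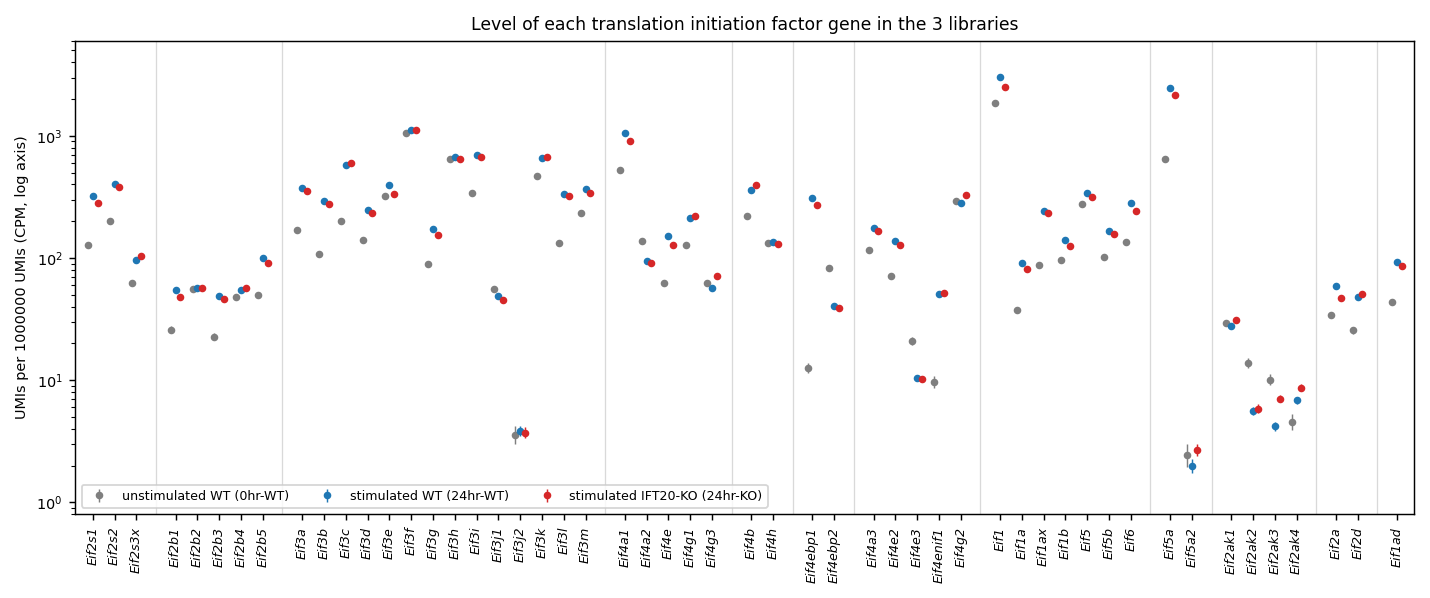
Level of each of the 52 members in CPM (log axis) in 0hr-WT (grey), 24hr-WT (blue) and 24hr-KO (red), with vertical lines between functional groups (from the left eIF2, eIF2B, eIF3, eIF4F, its helpers, 4E-BP, eIF4 relatives, scanning and joining, eIF5A, eIF2 kinases, eIF2A and eIF2D, others). Bars are 95% exact Poisson intervals, mostly smaller than the points; for 42 genes the stimulated WT point lies above the unstimulated one, and the stimulated points lie close together.

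The response was not even across the complexes. Summed over its 3 subunits, eIF2 was at 390.2 CPM in 0hr-WT, 821 in 24hr-WT and 763 in 24hr-KO (log2 ratio 1.07 for stimulation, 1.05 to 1.10). For eIF4F the sums were 914, 1580 and 1424 CPM (log2 ratio 0.79, 0.77 to 0.81). For eIF2B they were 203, 316 and 299 CPM (log2 ratio 0.64, 0.60 to 0.68), and for eIF3 3954, 5956 and 5768 CPM (log2 ratio 0.59, 0.58 to 0.60). All 4 complexes were thus higher after stimulation, by 1.5-fold or more in these sums, and in this order their intervals did not overlap, as far as counting error goes. With the mean of per-cell fractions eIF2B and eIF3 were both at 0.54, under 1.5-fold. By the median of the subunits eIF2B stood at 1.01, eIF3 at 0.74 and eIF4F at 0.73, so the order depends on the summary. In eIF2B, eIF3 and eIF4F single subunits ranged from near or below 0 to more than 1 on the log2 scale.

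**Figure D2:**
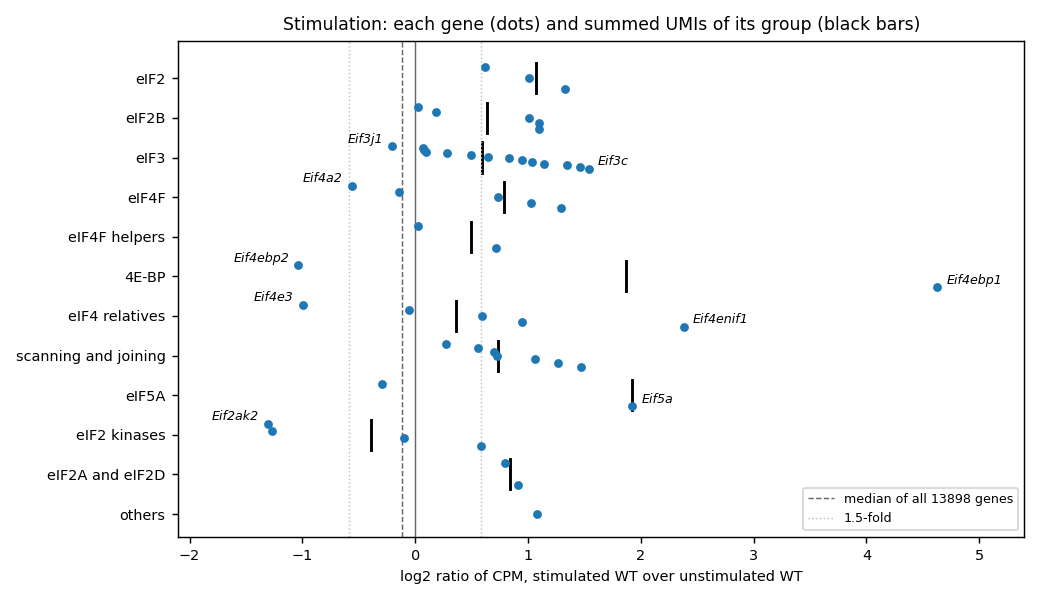
Log2 ratio of CPM, stimulated WT over unstimulated WT, for each member (dots) by functional group, with the ratio of the group's summed UMIs as a black bar, the median of all genes as a dashed line and 1.5-fold in either direction as dotted lines. Eif4ebp1 stands at 4.63, while Eif4ebp2, Eif4e3, Eif2ak2 and Eif2ak3 lie near −1.0 or below on this scale of shares.

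Within eIF4F, the cap-binding subunit and 1 of the helicases went with the complex and the other helicase did not. Eif4e, which binds the cap, was at 62.0 CPM in 0hr-WT, 152 in 24hr-WT and 129 in 24hr-KO (log2 ratio 1.29 for stimulation, 1.23 to 1.36). Eif4a1, the main eIF4A helicase, was at 523, 1064 and 912 CPM (log2 ratio 1.03, 1.00 to 1.05). Its paralog Eif4a2 was at 139, 93.9 and 90.2 CPM (log2 ratio −0.56, −0.61 to −0.51) on the scale of shares, though not as UMIs per cell. The 2 stimulated libraries were thus both above the unstimulated one for Eif4e and Eif4a1 and both below it for Eif4a2. Eif4a2 made up 21.0% of the UMIs of the helicase pair in 0hr-WT, 8.11% in 24hr-WT and 9.00% in 24hr-KO. Shares within such a set do not depend on how libraries are scaled, but they can differ with the depth of the cells. In cells with 2000 to under 5000 UMIs the stimulation ratio was 0.16 (0.08 to 0.24) for Eif4a1 and 0.08 (−0.08 to 0.24) for Eif4a2. In the other bins that could be compared, Eif4a2 was at −0.55, −0.86 and −0.65 from the lowest upward.

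The eIF4G scaffolds also differed from each other. Eif4g1 was at 128, 213 and 221 CPM (log2 ratio 0.73, 0.69 to 0.78), and Eif4g3 at 62.8, 56.9 and 71.6 CPM (−0.14, −0.21 to −0.07). Eif4g1 was above the unstimulated level in both stimulated libraries, whereas Eif4g3 was slightly below it in 24hr-WT and above it in 24hr-KO. Eif4g3 took 32.9% of the UMIs of the pair in 0hr-WT, 21.1% in 24hr-WT and 24.5% in 24hr-KO. This too differed with depth. In cells with 2000 to under 5000 UMIs the stimulation ratio was 0.91 (0.72 to 1.10) for Eif4g3 and 0.72 (0.57 to 0.86) for Eif4g1. In the other bins that could be compared, Eif4g3 was at −0.14, −0.10 and −0.28 from the lowest upward. Under 2000 UMIs Eif4g1 was at −0.26 (−0.50 to −0.01). Of the helpers that stimulate eIF4A, Eif4b was at 220.5, 363 and 398 CPM (log2 ratio 0.72, 0.69 to 0.75). The other helper, Eif4h, was at 133, 136 and 130.02 CPM, with a ratio whose interval included no difference (0.03, −0.02 to 0.08).

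The repressors of eIF4E showed the widest spread of any group. Eif4ebp1 (4E-BP1, chromosome 8, 27260329 to 27276674, plus strand) was at 12.5 CPM (11.4 to 13.7) in 0hr-WT, 309.8 (307 to 313) in 24hr-WT and 270.1 (267 to 273) in 24hr-KO. This was 24.7-fold higher after stimulation (log2 ratio 4.63, 4.50 to 4.76), above 99.1% of all genes. Eif4ebp2 (4E-BP2, chromosome 10, 61428491 to 61452661, minus strand) was at 83.3, 40.6 and 38.7 CPM (log2 ratio −1.04, −1.10 to −0.97), which turned to 0.32 as UMIs per cell without scaling. The stimulated libraries thus lay far above the unstimulated one for Eif4ebp1 and below it for Eif4ebp2. Eif4ebp1 made up 13.1% of the 4E-BP UMIs in 0hr-WT, 88.4% in 24hr-WT and 87.5% in 24hr-KO, with Eif4ebp2 nearly all of the rest. The third gene, Eif4ebp3, had 0, 0 and 1 UMI, where 3 counts would be 0.0808, 0.0256 and 0.0282 CPM.

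Of the relatives of eIF4 proteins, Eif4enif1 stood out. It encodes 4E-T, which binds eIF4E and represses mRNAs, and was at 9.67 CPM in 0hr-WT, 50.3 in 24hr-WT and 51.2 in 24hr-KO (log2 ratio 2.38, 2.23 to 2.54). Eif4e2, a cap-binding homolog that does not join eIF4G, was at 71.3, 138 and 127 CPM (0.95, 0.89 to 1.01). Eif4e3 was at 21.0, 10.5 and 10.3 CPM (−1.0, −1.13 to −0.87), and at 0.35 as UMIs per cell without scaling. Among the 3 cap-binding genes the share of Eif4e was 40.2%, 50.6% and 48.5%, that of Eif4e2 46.2%, 45.9% and 47.7%, and that of Eif4e3 13.6%, 3.50% and 3.86%. The share of Eif4e2 thus stayed within 2 percentage points, while that of Eif4e was higher and that of Eif4e3 lower after stimulation. Eif4a3, the helicase of the exon junction complex, was at 116, 175 and 166 CPM (0.59). Eif4g2, an eIF4G-like protein without an eIF4E site, was at 292, 282 and 326 CPM (−0.05, −0.08 to −0.02).

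**Figure D3:**
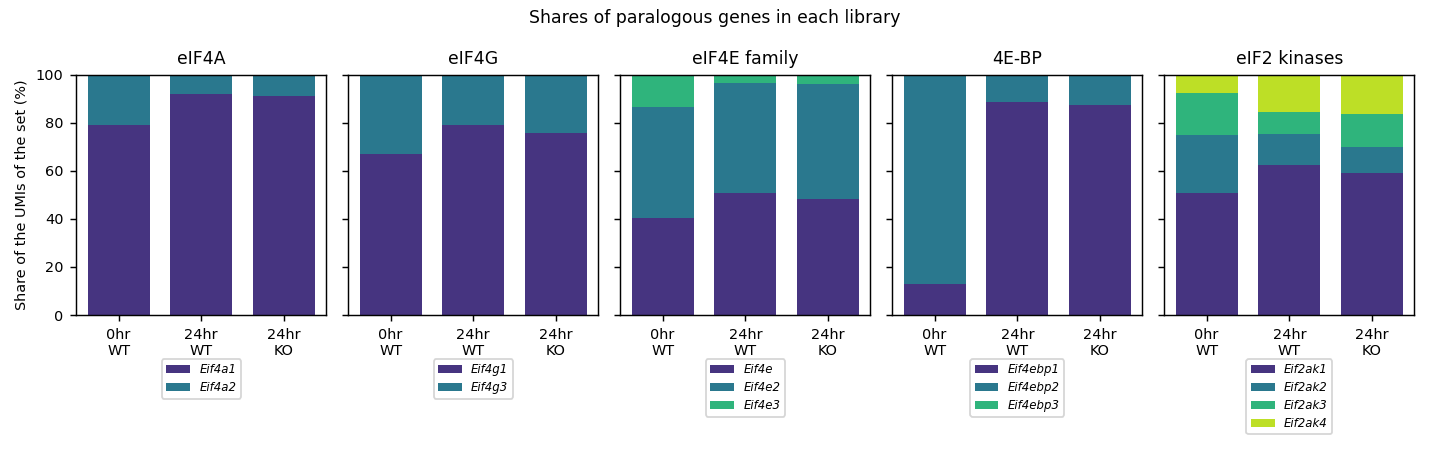
Share (%) of the UMIs of each set of related genes in the 3 libraries, with 1 stacked bar per library. The bar of Eif4ebp1 goes from 13.1% to 88.4% with stimulation and that of Eif4a2 from 21.0% to 8.11%. Among the wider gaps between 24hr-WT and 24hr-KO are Eif2ak3 (9.47% and 13.5%) and Eif4g3 (21.1% and 24.5%).

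All 3 subunits of eIF2 were 1.5-fold higher, as were 28.1% of all genes. Eif2s1 (eIF2α, the subunit that the eIF2 kinases phosphorylate) was at 128 CPM in 0hr-WT, 323 in 24hr-WT and 281 in 24hr-KO (log2 ratio 1.33, 1.29 to 1.38). Eif2s2 (β) was at 199.6, 402 and 379.6 CPM (1.01, 0.98 to 1.05), and Eif2s3x (γ, X-linked) at 62.2, 95.4 and 103 CPM (0.62, 0.55 to 0.68). Over all kept cells, the order of these 3 genes, Eif2s1 over Eif2s2 over Eif2s3x, holds against their intervals. Under 2000 UMIs it did not, with ratios of 0.72, 1.06 and 0.79 for Eif2s1, Eif2s2 and Eif2s3x. From 2000 to under 5000 UMIs Eif2s1 and Eif2s2 were alike (0.96 and 0.95). The paper states that male mice were used, and Eif2s3y, the Y-linked counterpart of Eif2s3x, was left out here and in the eIF2 sum. Of eIF2B, the exchange factor that reloads eIF2 with GTP, Eif2b1, Eif2b3 and Eif2b5 had log2 ratios of 1.09, 1.10 and 1.01. Eif2b4 was at 0.19 (0.11 to 0.27) and Eif2b2 at 0.02 (−0.05 to 0.09), with 55.9, 56.7 and 56.6 CPM in the 3 libraries. The 5 subunits of this complex are present in equal numbers. Over all kept cells, their genes fell into a group of 3 near a doubling and a pair near no difference. This split did not hold at each depth. Under 2000 UMIs Eif2b3 was at 0.34 (−0.082 to 0.77), Eif2b5 at 0.28 (−0.097 to 0.67) and Eif2b2 at −0.81 (−1.33 to −0.29). From 2000 to under 5000 UMIs Eif2b1 was at 0.059 (−0.32 to 0.42). In the bins from 5000 to under 20000 UMIs the group of 3 lay between 0.71 and 1.101, and the pair between −0.14 and 0.22.

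Taken as a sum, the eIF2 kinases were the only group lower in 24hr-WT as a share of UMIs (58.0 against 44.2 CPM, log2 ratio −0.39, −0.47 to −0.32, but higher as UMIs per cell without scaling). This did not hold at each depth, since cells with 2000 to under 5000 UMIs had 57.1 CPM in 0hr-WT and 91.0 in 24hr-WT (0.67, 0.46 to 0.88). The cells of that bin also differed in their median share of mitochondrial UMIs, 2.27% in 0hr-WT and 10.4% in 24hr-WT. Over all kept cells the single kinases differed. Eif2ak2 (PKR, which responds to double-stranded RNA) was at 13.8, 5.61 and 5.84 CPM (−1.30, −1.47 to −1.13; 0.050 as UMIs per cell). Eif2ak3 (PERK, the kinase of the endoplasmic reticulum stress response) was at 10.1, 4.18 and 7.075 CPM (−1.27, −1.47 to −1.07; 0.081 as UMIs per cell). Eif2ak1 (HRI, regulated by heme) was at 29.5, 27.6 and 30.9 CPM (−0.10, −0.20 to 0.00). Eif2ak4 (GCN2, which senses uncharged tRNA) went the other way, at 4.55, 6.82 and 8.67 CPM (0.58, 0.34 to 0.83). Its share of the kinase UMIs was 7.85%, 15.4% and 16.5%, while that of Eif2ak2 was 23.9%, 12.7% and 11.1%.

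Among the eIF3 genes 13 of 14 were higher, as were 6388 of all 13898 genes, and 8 were 1.5-fold higher (28.1% of all genes). Eif3c was at 200.03 CPM in 0hr-WT, 580.3 in 24hr-WT and 603 in 24hr-KO, the highest log2 ratio of the complex at 1.54 (1.5 to 1.57). Eif3f was at 1047, 1108 and 1115 CPM (0.08, 0.07 to 0.10) and Eif3h at 643, 675 and 641 CPM (0.07, 0.05 to 0.09). Summed over all kept cells, Eif3c was thus nearly 3-fold higher in both stimulated libraries, while Eif3f and Eif3h differed little among the 3. The latter did not hold at each depth. The stimulation ratios of Eif3f and Eif3h were 0.53 and 0.50 under 2000 UMIs, and −0.84 and −0.68 from 2000 to under 5000. They were 0.30 and 0.18 from 5000 to under 10000 UMIs, and 0.05 and 0.03 from 10000 to under 20000. The subunits a, b, c, g and i, which budding yeast also has, summed to 906 CPM in 0hr-WT and 2115 in 24hr-WT (log2 ratio 1.22, 1.21 to 1.24), and each of the 5 lay between 0.95 and 1.54. Subunits d, e, f, h, k, l and m, which it lacks, summed to 2989 and 3789 CPM (log2 ratio 0.34, 0.33 to 0.35), and ranged from 0.07 to 1.35. This split was made after the values were seen, and Eif3l at 1.35 lay among the first group. It left out eIF3j, so it is not a full split of the subunits by their presence in budding yeast. The loosely bound subunit eIF3j has a pair of genes whose transcripts are 99.4% identical over 2379 bases, so their UMIs may be split unevenly. Eif3j1 was at 56.3, 48.8 and 45.6 CPM (−0.21) and Eif3j2 at 3.58, 3.83 and 3.72 CPM (0.10, −0.19 to 0.39).

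The 7 genes for scanning and subunit joining were all higher, 5 of them 1.5-fold (28.1% of all genes). Eif1, which guards start codon choice, was at 1845 CPM in 0hr-WT, 3045 in 24hr-WT and 2528 in 24hr-KO (log2 ratio 0.72, 0.71 to 0.73). Of the pair encoding eIF1A, Eif1ax was at 87.6, 243 and 234 CPM (1.47, 1.42 to 1.52) and Eif1a at 37.5, 90.4 and 80.7 CPM (1.27, 1.19 to 1.35), and their shares moved little (Eif1a 30.0%, 27.1% and 25.6%). Eif6, which keeps the large subunit from joining too early, was at 134, 281 and 245 CPM (1.07, 1.02 to 1.11). Eif5b, the GTPase of subunit joining, was at 102, 166 and 158 CPM (0.70), and Eif1b at 95.7, 140.5 and 124 CPM (0.55). Eif5, the activator of the GTPase of eIF2, had the smallest ratio of the group at 279, 338 and 316 CPM (0.28, 0.25 to 0.31). A further gene with an eIF1A domain, Eif1ad, was at 43.7, 92.2 and 86.5 CPM (1.08, 1.00 to 1.15).

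Eif5a encodes a factor that helps ribosomes through difficult peptide bonds and carries the modified residue hypusine. It (chromosome 11, 69916714 to 69921958, minus strand) was at 643 CPM (635 to 651) in 0hr-WT, 2442 (2433 to 2451) in 24hr-WT and 2153 (2144 to 2162) in 24hr-KO, 3.797-fold higher with stimulation (log2 ratio 1.92, 1.91 to 1.94). Its paralog Eif5a2 was at 2.42, 1.97 and 2.68 CPM (−0.30, −0.65 to 0.07). Of the factors that can bring initiator tRNA without eIF2, Eif2a was at 34.3, 59.4 and 46.6 CPM (0.79, 0.71 to 0.88) and Eif2d at 25.6, 48.2 and 50.7 CPM (0.91, 0.81 to 1.01). Both were above the unstimulated level in each stimulated library.

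The sequence before the start of these genes was searched for the E-box CACGTG, the site of MYC and related factors, in RefSeq windows of 300 bases (250 before to 50 after a start, GRCm38.p6). Windows were found for 42 of the 52 members, and 12 of their 55 windows (21.8%) held the E-box on either strand, against 7.15% of 32851 windows of 27025 genes. Counted by gene these were 23.8% and 8.09%. The genes compared with were not limited to those expressed in these cells. Among the members, 5 of 26 members that were 1.5-fold higher with stimulation and 5 of 16 other members had one. The 10 genes were Eif1b, Eif3a, Eif3f, Eif3k, Eif4a1, Eif4e, Eif4g1, Eif4h, Eif5a and Eif5a2, which include genes with large ratios (Eif5a, Eif4e) and genes with ratios near 0 (Eif3f, Eif4h). The stretches below show the E-box in capitals for genes of both kinds, each read on the strand of its gene.
Eif4e, chr3:138527020-138527065, plus strand, 228 bases before a start: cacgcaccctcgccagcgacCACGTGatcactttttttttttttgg
Eif4e, chr3:138527184-138527229, plus strand, 64 bases before the same start: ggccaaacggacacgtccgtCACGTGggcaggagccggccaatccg
Eif4a1, chr11:69672587-69672632, minus strand, 189 bases before: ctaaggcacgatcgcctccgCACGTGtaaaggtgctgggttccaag
Eif4g1, chr16:20672653-20672698, plus strand, 54 bases before: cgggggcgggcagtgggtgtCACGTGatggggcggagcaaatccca
Eif5a, chr11:69920783-69920828, minus strand, 178 bases before 1 start: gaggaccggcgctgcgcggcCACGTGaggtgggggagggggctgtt
Eif5a, chr11:69921435-69921480, minus strand, 185 bases before another start: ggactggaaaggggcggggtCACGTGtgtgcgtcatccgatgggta
Eif3f, chr7:108934327-108934372, plus strand, 68 bases before: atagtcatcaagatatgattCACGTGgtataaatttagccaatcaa
Eif3k, chr7:28981907-28981952, minus strand, 44 bases before: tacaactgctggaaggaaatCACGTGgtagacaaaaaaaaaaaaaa
Eif4h, chr5:134639480-134639525, minus strand, 96 bases before: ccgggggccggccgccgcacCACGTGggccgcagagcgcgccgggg
A match is a stretch of letters and no measured binding site. Of the other searched motifs, TGATGNAA, the core of the composite sites of ATF4 (the factor made when eIF2 is phosphorylated), was in 1 member window (1.82%) against 3.97% of all windows. The match was in Eif2s3x, shown on the strand of the gene, where the capitals are the reverse complement.
Eif2s3x, chrX:94212720-94212767, minus strand, 96 bases before: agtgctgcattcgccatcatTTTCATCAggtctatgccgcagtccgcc
GAAANNGAA, letters of interferon response elements, was in 4 member windows (7.27%) against 8.56% of all windows, and Eif2ak2, a classic interferon target, was among them.

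The larger share of initiation factors was also seen cell by cell. In cells with 1000 or more UMIs the median share of a cell's UMIs was 0.964% in 7588 cells of 0hr-WT, 1.61% in 9748 of 24hr-WT and 1.44% in 13920 of 24hr-KO. Between the 25th and the 75th percentile the cells spanned 0.851% to 1.08% in 0hr-WT, 1.27% to 1.86% in 24hr-WT and 1.203% to 1.68% in 24hr-KO. The 25th percentile of each stimulated library thus lay above the 75th of the unstimulated one. The medians for Eif5a were 0.056%, 0.21% and 0.18%, and those for eIF3 0.39%, 0.58% and 0.54%. Among the lowest shares the 2 stimulated libraries crossed, with a 5th percentile of 0.786% in 24hr-WT and 0.912% in 24hr-KO.

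**Figure D4:**
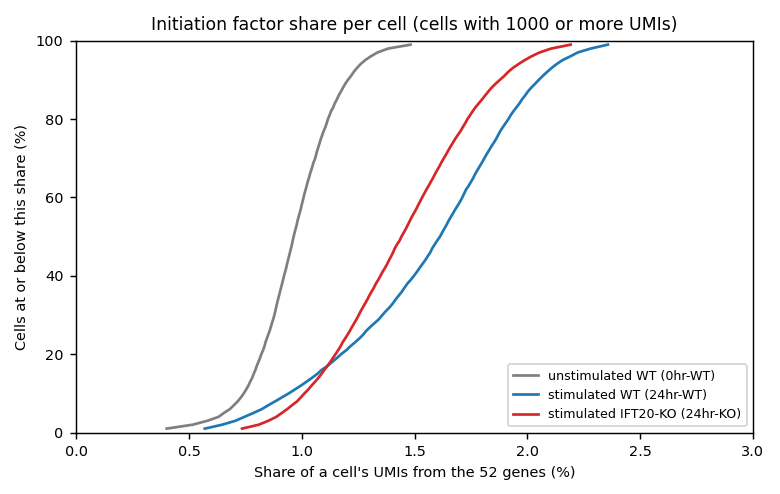
Percentage of cells (y axis) at or below a given share of UMIs from the 52 genes (x axis, %) in cells with 1000 or more UMIs. The unstimulated curve has its median at 0.964%, the stimulated WT curve at 1.61% and the IFT20-KO curve at 1.44%, and the stimulated curves cross at a low share.

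Between the stimulated libraries the members differed little. Their summed level was 17169 CPM in 24hr-WT and 15849 (15825 to 15873) in 24hr-KO (log2 ratio −0.12, −0.12 to −0.11), and without Eif5a and Eif1 it was −0.065. The median log2 ratio of the members was −0.072, against 0.136 over all genes and 0.0014 over genes with 50 CPM or more. By sign 16 members were higher in 24hr-KO and 36 lower, a split of 6 and 46 with median-ratio size factors and of 1 and 51 as UMIs per cell without scaling. Scaled by the UMI total, 9463 of all 13898 genes were higher and 4435 lower, and 1728 and 1707 of those with 50 CPM or more. Relative to all genes, which no such scaling alters, the members' median was 0.21 lower and 46 of 52 lay below the median of all genes. Of the 3435 genes with 50 CPM or more, 2538 also lay below that median. A place below it was thus common among such genes, though less so than among the members. In cells with at least 5000 UMIs the gap between the members' median and that of all genes was smaller, −0.11, with 41 of 52 members below. No member was 1.5-fold lower (3.96% of all genes) and 1 was 1.5-fold higher (14.0% of all genes). At a 1.2-fold difference 4 members were higher, against 36.1% of all genes, and 2 were lower, against 8.51%. This balance rested on the scaling, with 2 higher and 15 lower by median-ratio size factors and 0 and 50 as UMIs per cell. On those scales the median log2 ratio of all genes was −0.028 and −0.49. The latter is itself past 1.2-fold, so the count of 50 went with a shift of genes at large. The share of all genes past 1.2-fold on those scales is not given here, so these counts do not set the members apart. Scaled by the UMI total, 1 of 44 members with 50 CPM or more was 1.2-fold higher (13.5% of such genes) and 2 of 44 were lower (3.81%).

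Scaled by the UMI total, the summed complexes differed by less than 1.2-fold, while median-ratio size factors put eIF2 at −0.27 and eIF4F at −0.31, past 1.2-fold. UMIs per cell put all 4 between −0.78 and −0.67, where the median of all genes was −0.49. By the UMI total, log2 ratios of 24hr-KO over 24hr-WT were −0.10 (−0.12 to −0.09) for eIF2, −0.080 (−0.10 to −0.058) for eIF2B, −0.046 (−0.051 to −0.042) for eIF3 and −0.15 (−0.16 to −0.14) for eIF4F. The scanning and joining genes stood at −0.22, eIF5A at −0.18 and the eIF2 kinases at 0.25. Of single genes, Eif1 was at −0.27 (−0.28 to −0.26), Eif4e at −0.24, Eif3e at −0.23, Eif4a1 at −0.22, Eif2s1 at −0.20 and Eif4ebp1 at −0.20. Some subunits of the same complexes did not share the sign, such as Eif4g1 at 0.05 (0.03 to 0.08), Eif3c at 0.06 (0.04 to 0.07) and Eif2s3x at 0.11 (0.07 to 0.15).

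Cells with under 5000 UMIs were more frequent in the IFT20-KO library, and their part in these small differences was not tested beyond the following bins. Cells under 2000 UMIs were the less frequent ones there, at 14.3% of 24hr-WT and 9.19% of 24hr-KO. Cells with 2000 to under 5000 UMIs made up 9.83% of 24hr-WT and 40.8% of 24hr-KO, and their median mitochondrial share was 10.4% and 5.75%, against 1.03% to 1.49% in the bins from 5000 UMIs upward. Within bins of UMIs per cell the summed level of the members in 24hr-KO over 24hr-WT was 0.41 under 2000 UMIs, 0.22 from 2000 to under 5000, −0.0017 from 5000 to under 10000, −0.056 from 10000 to under 20000 and −0.087 from 20000. The direction thus turned, with higher levels in IFT20-KO cells in the bins below 5000 UMIs and equal or lower levels above. In the highest bin eIF4F was at −0.15, eIF2 at −0.17, eIF5A at −0.11 and scanning and joining at −0.17, while eIF3 was at 0.00020 (−0.012 to 0.013). Stimulation gave a higher summed level in each of the 4 bins that could be compared, by 0.67, 0.10, 0.61 and 0.77 from the lowest upward. In the bin from 2000 to under 5000 UMIs eIF3 was lower in 24hr-WT (−0.13, −0.16 to −0.10), as were the scanning and joining genes (−0.26, −0.30 to −0.22) with Eif1 at −0.41. That bin held 49.3% of the cells of 0hr-WT, at a median mitochondrial share of 2.27%, and 9.83% of 24hr-WT, at 10.4%. Its cells were thus matched in depth only, and the part of this difference in the ratios was not tested. There the median log2 ratio of the members, 0.25, lay below that of all genes, 0.49, unlike in the other 3 bins. The bin from 20000 UMIs held 4 unstimulated cells and was not compared.

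**Figure D5:**
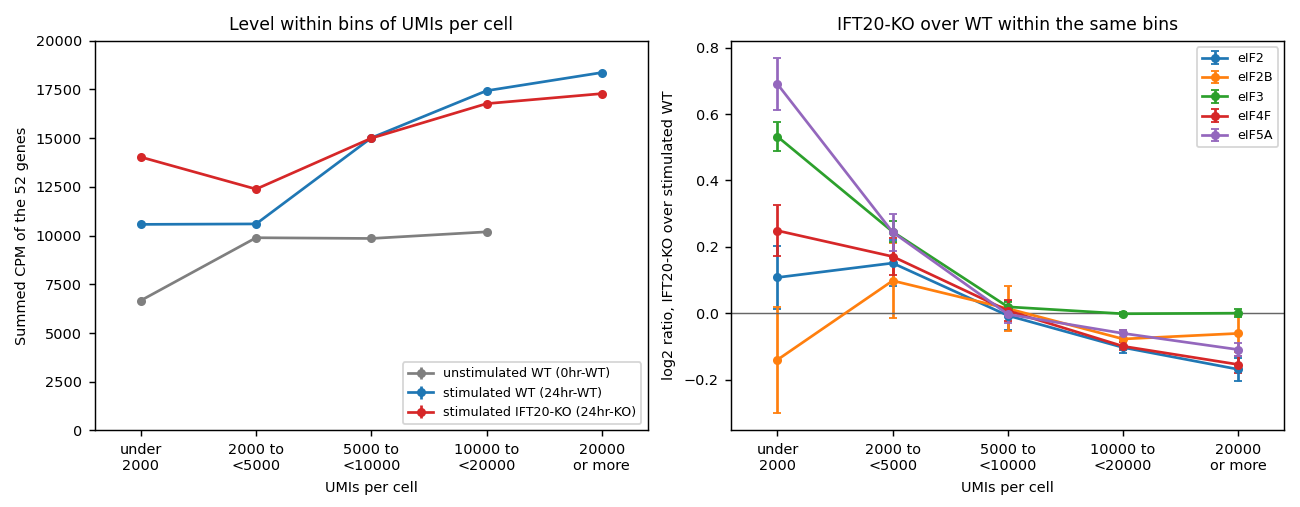
Left, summed CPM of the 52 members within bins of UMIs per cell; right, log2 ratio of stimulated IFT20-KO over stimulated WT for 5 groups in the same bins, with 95% counting intervals. The members' level grows with UMIs per cell in the stimulated libraries from 2000 UMIs upward. For eIF2, eIF3, eIF4F and eIF5A the ratio passes from above 0 to near or below 0, with eIF3 near 0 from 5000 UMIs. The ratio of eIF2B starts at −0.14 (−0.30 to 0.02) and is 0.098 in the next bin.

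Few members differed by 1.2-fold, and their values went with depth to different degrees. Eif2ak3 was at 4.18 CPM (3.82 to 4.57) in 24hr-WT and 7.075 (6.58 to 7.60) in 24hr-KO (log2 ratio 0.76, 0.59 to 0.93) from 489 and 753 UMIs. In cells with 2000 to under 5000 UMIs it was at 22.7 and 23.4 CPM (ratio 0.04, −0.36 to 0.46), and between 2.86 and 4.26 CPM in the bins from 5000 upward. In the cells from 2000 to under 5000 UMIs, a larger part of 24hr-KO than of 24hr-WT, its level was thus several-fold that of deeper cells. There it differed between the libraries by less than its interval. From 10000 to under 20000 UMIs the ratio was 0.42 (0.15 to 0.68), and in no other bin did the interval leave out 0. Eif4g3 was at 0.33 (0.28 to 0.38) in the sum, between 0.08 and 0.14 in the bins from 5000 UMIs and −0.35 under 2000 UMIs, and at −0.30 as UMIs per cell without scaling. Eif2ak4 (0.35, 0.21 to 0.48) and Eif5a2 (0.44, 0.18 to 0.70) were the other genes above 1.2-fold, at −0.28 and −0.19 as UMIs per cell without scaling.

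Of the members lower by 1.2-fold, Eif2a kept its direction. It was at 59.4 CPM (58.0 to 60.8) in 24hr-WT and 46.6 (45.4 to 48.0) in 24hr-KO (log2 ratio −0.35, −0.40 to −0.30), above that of 6.34% of all genes. In the 5 bins from the lowest upward the ratio was −0.24, −0.42, −0.20, −0.31 and −0.38, so it was lower in IFT20-KO cells at each depth, although the interval of the lowest bin (−0.62 to 0.14) includes 0. It was not alone, as Eif4e3, Eif3j1 and Eif3j2 were also below 0 in each bin. Eif4e3 was at −1.04 (−1.64 to −0.47), −0.14, −0.86 (−1.14 to −0.58), −0.065 and −0.35, and its other intervals included 0. Eif1, the other gene lower by 1.2-fold, was at 0.47 and 0.21 in the bins under 5000 UMIs and at −0.14, −0.17 and −0.21 above. Of the genes with wide ratios for stimulation, most kept their direction in the 4 bins that could be compared. Log2 ratios of 24hr-WT over 0hr-WT lay between 3.51 and 4.23 for Eif4ebp1, 2.2 and 3.44 for Eif4enif1, 0.87 and 1.87 for Eif5a, −1.37 and −1.0 for Eif4ebp2, and −1.25 and −0.86 for Eif2ak2. Eif2ak3 and Eif4e3 did not. Eif2ak3 was at 1.21 (0.76 to 1.65) from 2000 to under 5000 UMIs, where the median mitochondrial share was 2.27% in 0hr-WT and 10.4% in 24hr-WT. Eif4e3 was at 0.36 (0.11 to 0.61) from 5000 to under 10000 UMIs.

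Other genes of translation from a list of 40, of which 38 had 10 UMIs or more, were less uniform. With stimulation 12 of 38 were 1.5-fold higher, close to the 28.1% of all genes, and 5 were lower (35.3% of all genes), with a median log2 ratio of 0.27. Of 13 genes that control initiation 1 was 1.5-fold higher (Larp4, 0.92) and 4 were lower, the latter near the share of all genes. Lower were Pdcd4, an inhibitor of eIF4A, at 224, 40.5 and 48.0 CPM (−2.47), Ppp1r15a, which guides the phosphatase of eIF2, at 52.8, 24.5 and 25.8 CPM (−1.11), and the eIF4E kinases Mknk2 (−1.09) and Mknk1 (−0.83). Of 14 genes listed as helpers, a loose grouping, 6 were higher. They were the poly(A)-binding Pabpc4 (1.90) and Pabpc1 (0.59), Ltv1 (1.31), Denr (1.04), Abce1, which recycles ribosomes (0.99), and Mcts1 (0.68). The release factors Etf1 (1.53) and Gspt1 (1.40) were higher. Of the genes with an Eef1 symbol, Eef1e1 (1.53), Eef1g (1.48) and Eef1d (0.73) were higher, while Eef1a1 was at 11550, 7393 and 7601 CPM (−0.64). Dhps and Dohh, which make the hypusine of eIF5A, were at 0.24 and −0.14. In 24hr-KO over 24hr-WT 3 of 38 were 1.2-fold higher (Rptor 0.61, Larp4 0.33 and Paip1 0.29; 36.1% of all genes) and 2 lower (Larp1 −0.30 and Mcts2, with 27 and 11 UMIs; 8.51% of all genes), and the median was 0.012.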

How the data were processed

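The authors aligned the reads of 3 single-cell libraries to mm10, called cell barcodes and counted UMIs per gene with Cell Ranger, given as 3.1.0 in the file headers. They deposited these counts, whole and not normalized, for 8253, 10320 and 13932 barcodes (0hr-WT, 24hr-WT, 24hr-KO). The methods speak of 10000 cells per library. The labels name a 5′ kit and the methods a 3′ kit, and with either 1 end of each transcript was counted, so counts were not divided by length.

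Kept barcodes had over 200 genes and less than 15% of their UMIs from mitochondrial genes, which left out 222, 417 and 12. The lowest barcode had 500, 709 and 1493 UMIs, so the cell calling differed in its minimum. No doublets were called. UMIs were summed per library and given as CPM with exact Poisson intervals. Log2 ratios have exact binomial intervals. A gene at 0 was set to a floor of 3 counts. With 1 library per group no test was run. Members and lists were chosen with earlier results of these data known. Named were members at the ends of each functional group, past 1.5-fold (stimulation) or 1.2-fold (IFT20-KO), in paralog sets or under 10 UMIs, and other translation genes past those folds. Dhps and Dohh were added after their values were seen. The calculation of the intervals was checked on simulated Poisson counts with 200 changed genes. Of 13297 genes (stimulation) 93% of the changed and 95.8% of the unchanged lay within their intervals, and 93% and 95.5% of 13504 (IFT20-KO). These counts held counting error only, the error that the intervals assume. They cannot show how the intervals would cover variation between cells, mice or libraries. Gene positions are from GENCODE M21 and promoters from RefSeq. Of the members 16 have another annotated transcript that is 95% identical or more over 200 bases, and Eif1 has 15 such transcripts, so some of their reads may have been discarded or shared. Python 3.11.15, numpy 2.4.6, scipy 1.17.1 and pandas 2.3.3 were used.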

Additional observations from a re-analysis of the deposited data

How the results depend on the processing

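With 1 library per group the values have no replicate check, and intervals leave out the variation between mice and cultures. No paired analysis was possible because each group had 1 library and no result came from a test. The median ratio of the members kept its sign in both comparisons under the 10 alternatives, and sizes moved most with scaling. The 4 summed complexes kept theirs under those alternatives that can alter a sum. A changed minimum of UMIs per gene or the mean in place of the median cannot alter it. A minimum of 200 UMIs also left the same 52 members. Bins of UMIs per cell were not among the alternatives, and in them some signs turned, as given above. With median-ratio size factors stimulation gave 0.84 for the members' median, 1.19 for eIF2, 0.75 for eIF2B, 0.70 for eIF3 and 0.90 for eIF4F, and IFT20-KO over WT gave −0.24, −0.27, −0.24, −0.21 and −0.31, with 2 members 1.2-fold higher and 15 lower. As UMIs per cell without scaling stimulation gave 2.07, 2.43, 1.99, 1.94 and 2.14, with 48 members 1.5-fold higher and 0 lower, and IFT20-KO over WT −0.70, −0.73, −0.71, −0.67 and −0.78, with 0 members 1.2-fold higher and 50 lower. The median of all genes on that scale was 1.24 for stimulation and −0.49 for IFT20-KO over WT, and −0.028 for the latter with size factors. The shares of all genes past these folds under the alternatives are not given here, so the counts in this section do not set the members apart. As UMIs per cell the 10 members that were lower with stimulation were all higher, among them those past 1.5-fold, Eif2ak3 (0.081), Eif4e3 (0.35), Eif4ebp2 (0.32) and Eif2ak2 (0.050). Of the 16 that were higher in IFT20-KO 1, Eif2ak3 (0.13), still was, and of those past 1.2-fold Eif2ak4 (−0.28), Eif5a2 (−0.19) and Eif4g3 (−0.30) turned. With the mean of per-cell fractions stimulation gave 0.66, 1.02, 0.54, 0.54 and 0.68, and IFT20-KO over WT −0.029 for eIF2, −0.050 for eIF2B, −0.059 for eIF3 and −0.11 for eIF4F. In cells with at least 5000 UMIs eIF3 was at 0.58 with stimulation and −0.0021 in IFT20-KO, where eIF2 was at −0.13 and eIF4F at −0.14, with 1 member 1.2-fold higher and 1 lower. A stricter limit on cells (over 1000 genes, mitochondrial share below 10%) gave −0.059 for eIF3 in IFT20-KO, and without the 6% of cells with the most UMIs it was −0.058 and eIF4F −0.16. The mean in place of the median gave 0.66 and −0.032 for the members. The cause of these shifts was not tested. Of 300 values of paralog shares under the alternatives 215 stayed within their counting interval.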
